A study of Mus musculus with 60 samples.

Results

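The genes described here are 44 listed genes of the lysosome and of autophagy, cathepsins left out, read from the raw gene counts of mouse hippocampus. They are 16 lysosomal hydrolases, 4 cofactors and cholesterol transfer proteins, 6 lysosomal membrane proteins, 6 subunits of the proton pump, 2 TFE transcription factors, 8 autophagy genes and 2 Rab genes. They are given as a list of names drawn up with earlier results of these data known, the rule itself uses no measured value, and all 44 of 44 are among the 35976 gene symbols counted. All 44 passed the filter on low counts in each comparison, and together they took 0.627 to 0.757% of the counts of a library. Total RNA depleted of ribosomal RNA was sequenced from 60 hippocampus samples. The NLGF samples come from App NL-G-F mice, a knock-in line in which mutations of familial Alzheimer's disease are carried by the mouse App gene itself, so that its own promoter drives the mutant protein. The other samples are wild type (WT). Each genotype was taken at 3, 8 and 24 weeks of age with 5 samples labelled female and 5 labelled male, which gives 10 per genotype and age. No treatment or transgene is named for any group. The labels do not state that each sample is a separate animal, and a part of the spread behind every p-value may therefore be technical.

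Lysosomes are acid compartments in which hydrolases break down proteins, glycans and lipids that arrive by endocytosis, phagocytosis or autophagy. The vacuolar ATPase pumps in the protons, membrane proteins such as the LAMPs line the compartment, and autophagosomes built by the ATG proteins and LC3 fuse with it under the control of RAB7. TFEB and TFE3 are the factors known to switch on many of these genes together through an E-box called the CLEAR element. In brain, phagocytic microglia are rich in lysosomes, and loss of several of these genes causes storage disease or neurodegeneration.

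Levels are CPM (counts scaled by library size) with library totals adjusted by TMM over all 60 libraries. Total counts were 17.8 to 35.2 M in 53 libraries and 54.0 to 73.4 M in the other 7, which are NLGF libraries of week 3 (females 1, 4 and 5, males 2 to 5) and are called deep below. These 7 also differ in content: the neuronal noncoding RNA Bc1 stood at 1776 to 5815 CPM in them and at 2.25 to 59.6 CPM in the others. The library labelled NLGF W3 male 2 has sex-linked counts that go against its label, and the library labelled NLGF W8 female 1 carries an age of 3 weeks in another label field. Both stayed under their titles. NLGF W3 male 2 lay close to NLGF W3 female 1 in Xist (250 and 256 CPM), Lamp2 (115 and 116 CPM) and summed choroid plexus markers (15231 and 15358 CPM). It lay farther off in total counts (55.4 and 71.8 M) and Bc1 (1903 and 3334 CPM). Whether they are separate samples was not tested. Blood markers summed to 66.8 CPM in NLGF W8 female 1, against 139 to 748 CPM in NLGF libraries of week 3. Of 8 markers of hippocampal pyramidal and granule cells all 8 were detected, with a summed level of 824 to 2047 CPM over all libraries.

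Per kilobase of exon in WT hippocampus at week 24, levels of the 44 genes covered a wide range. Psap, the precursor of the saposins that present lipids to hydrolases, was highest at 581 ± 46.1 CPM per kb (SD, n = 10). Next on this scale came the pump subunit Atp6v1b2 at 108 ± 7.52, the autophagy receptor Sqstm1 at 106 ± 7.21 and the pump subunit Atp6v1a at 99.9 ± 9.54 CPM per kb, which lie within each other's spread. The acid glucosidase Gaa was the highest hydrolase at 95.7 ± 10.5 CPM per kb and the heparan sulfamidase Sgsh the lowest at 1.72 ± 0.203 CPM per kb. Tfe3 (3.55 ± 0.246 CPM per kb) stood above Tfeb (1.34 ± 0.137 CPM per kb). At the bottom, Rab7b had 0.2165 ± 0.0264 CPM per kb, while its relative Rab7 had 75.2 ± 2.78 CPM per kb.

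The comparison of NLGF with WT at week 24 asks what differs in adult knock-in hippocampus. Grn, Gusb, Man2b1 and Hexa were higher in NLGF, by 24 to 37%, and no member was lower. The count of 4 of 44 (9.09%) stands beside 0.878% of the 16508 genes tested (0.8% higher, 0.0787% lower). At an unadjusted p under 0.05 the members were 9 of 44, beside 8.99% of all genes. The median log2 fold change of the members was 0.03, against -0.000633 over all genes. Tests are edgeR quasi-likelihood tests with sex as covariate, adjusted over all genes, and "called" below means an adjusted p under 0.05.

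Grn (GRCm38 with GENCODE vM21, chr11:102430315-102437048, plus strand) encodes progranulin, a secreted and lysosomal protein whose loss causes frontotemporal dementia and, when complete, lysosomal storage disease in humans. Its lowest, median and highest levels were 61.4, 64.8 and 74.5 CPM in NLGF libraries, against 46.7, 50.7 and 59.9 CPM in WT libraries at week 24. All 10 NLGF libraries lay above all 10 WT libraries, which held for 0.315% of all genes tested. The log2 fold change was 0.36 ± 0.047 (SE, adjusted p = 6.40e-05).

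Gusb (chr5:129989011-130003049, minus strand) is beta-glucuronidase, which removes glucuronate from glycosaminoglycans. At week 24 it ran from 11.2 over a median of 15.4 to 18.5 CPM in NLGF libraries, against 10.3, 11.1 and 13.0 CPM in WT libraries. Of the NLGF libraries 9 of 10 were above every WT library, and NLGF W24 male 1 lay among them. The log2 fold change was 0.46 ± 0.070 (adjusted p = 0.000524).

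Man2b1 (chr8:85083270-85098282, plus strand), the lysosomal alpha-mannosidase, had a lowest, median and highest level of 61.2, 65.7 and 83.2 CPM in NLGF libraries, against 50.2, 53.0 and 67.0 CPM in WT libraries at week 24. All 10 NLGF libraries were above the WT median, but WT W24 male 4 reached into their range and 3 of 10 NLGF libraries exceeded it. The log2 fold change was 0.33 ± 0.059 (adjusted p = 0.00340).

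Hexa (chr9:59539540-59565109, plus strand) is the alpha subunit of beta-hexosaminidase, the enzyme that is missing in Tay-Sachs disease. It stood at 37.6, 41.8 and 54.9 CPM (lowest, median, highest) in NLGF libraries, against 30.7, 35.6 and 42.4 CPM in WT libraries at week 24. The groups overlapped, with 4 of 10 NLGF libraries above every WT library and 10 of 10 above the WT median. The log2 fold change was 0.31 ± 0.067 (adjusted p = 0.0196), and without the sex term it was not called (adjusted p = 0.0531). In both sexes the mean was higher in NLGF: females averaged 46.3 ± 5.48 CPM with NLGF and 38.5 ± 3.33 CPM as WT, males 42.2 ± 6.07 CPM with NLGF and 33.1 ± 2.56 CPM as WT (SD, n = 5 each). Exons of Hexa share 12.8% of their length with Tmem202 on the other strand, and the strand setting of the counts is not given in the sources used here.

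**Figure D1:**
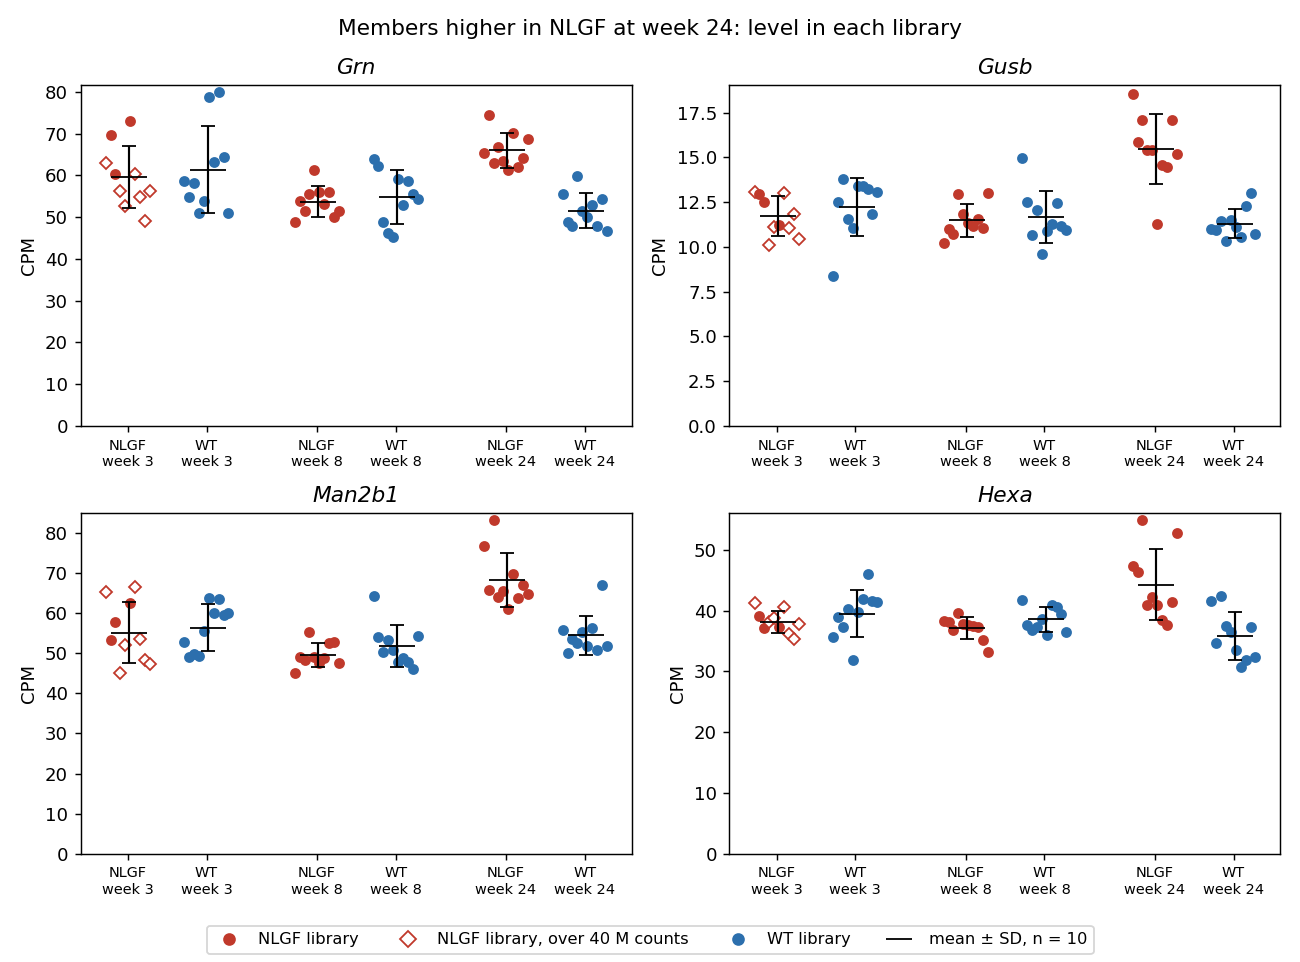
CPM of Grn, Gusb, Man2b1 and Hexa in each library (points) by genotype and week, with mean and SD (n = 10 each); open diamonds are the 7 NLGF libraries of week 3 with over 40 M counts. At weeks 3 and 8 the NLGF and WT points of each gene lie in the same range, while at week 24 the Grn points of NLGF (61.4 to 74.5) all lie above those of WT (46.7 to 59.9).

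Promoter windows of RefSeq (GRCm38.p6, 250 bases before to 50 after the start) were found for 36 of the 44 genes. The E-box CACGTG, which reads the same on both strands, occurred in 13 of 36 (36.1%), against 8.09% of the 27025 genes with a window. Its flanked form TCACGTGA, which contains the E-box and comes closer to the CLEAR element, occurred in 5 of 36 (13.9%), against 1.12%. By role the E-box was in 3 of 6 membrane proteins, 6 of 14 hydrolases, 2 of 4 pump subunits and 2 of 6 autophagy genes. It was in 0 of 3 cofactors, 0 of 2 TFE factors and 0 of 1 Rab gene. Below are stretches that hold the flanked form or 4 copies of the E-box, all from members not called at week 24. Other members with an E-box are not shown. Among them are Naglu and Lgmn, the uncalled member with the smallest p at week 24. Capitals mark the E-box in Lamp1, which has 4 copies, and the flanked form in the other 5.

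Lamp1 (chr8:13159080-13159171, plus strand): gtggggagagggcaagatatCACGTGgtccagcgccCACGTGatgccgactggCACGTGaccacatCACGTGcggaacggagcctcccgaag

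Gla (chrX:134601206-134601253, minus strand): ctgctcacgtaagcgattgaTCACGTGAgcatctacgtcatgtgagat

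Mcoln1 (chr8:3500453-3500500, plus strand): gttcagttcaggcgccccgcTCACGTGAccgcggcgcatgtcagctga

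Cln3 (chr7:126583331-126583378, minus strand): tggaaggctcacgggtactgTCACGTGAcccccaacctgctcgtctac

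Atp6v0d1 (chr8:105566041-105566088, minus strand): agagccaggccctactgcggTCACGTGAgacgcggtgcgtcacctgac

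Atp6v1a (chr16:44139364-44139411, minus strand): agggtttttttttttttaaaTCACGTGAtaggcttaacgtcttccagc

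The windows of the 4 members that rose at week 24 are shown here in full. None held CACGTG, which 13 of 36 members and 8.09% of all genes with a window hold. Most members lack it, so its absence is not particular to these 4. An E-box variant, TCACATG or CATGTGA on the other strand, was searched after these windows had been read and occurred in 7 of 36 members (19.4%), against 4.5% of all genes. The Spi1 motif GAGGAAGT, ACTTCCTC on the other strand, was searched at the same time and occurred in 2 of 36 (5.56%), against 3.69%. Capitals mark the variant in Grn, which begins 211 bases before the start, and the Spi1 motif in Gusb, which begins at base 38 of the transcript. A match is a string of letters in a window and not a measured binding site.

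Grn (chr11:102430257-102430556, plus strand): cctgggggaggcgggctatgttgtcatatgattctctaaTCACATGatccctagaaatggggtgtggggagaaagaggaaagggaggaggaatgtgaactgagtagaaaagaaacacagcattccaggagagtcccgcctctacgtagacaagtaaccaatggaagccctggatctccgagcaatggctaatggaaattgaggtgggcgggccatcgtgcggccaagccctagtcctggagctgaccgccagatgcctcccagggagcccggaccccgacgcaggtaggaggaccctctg

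Gusb (chr5:130003000-130003299, minus strand): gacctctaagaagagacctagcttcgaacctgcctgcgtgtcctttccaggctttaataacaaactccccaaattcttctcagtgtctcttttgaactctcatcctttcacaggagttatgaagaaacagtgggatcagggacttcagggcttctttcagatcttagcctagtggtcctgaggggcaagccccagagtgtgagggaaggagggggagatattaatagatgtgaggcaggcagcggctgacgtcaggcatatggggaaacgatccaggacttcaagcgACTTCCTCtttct

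Hexa (chr9:59539290-59539589, plus strand): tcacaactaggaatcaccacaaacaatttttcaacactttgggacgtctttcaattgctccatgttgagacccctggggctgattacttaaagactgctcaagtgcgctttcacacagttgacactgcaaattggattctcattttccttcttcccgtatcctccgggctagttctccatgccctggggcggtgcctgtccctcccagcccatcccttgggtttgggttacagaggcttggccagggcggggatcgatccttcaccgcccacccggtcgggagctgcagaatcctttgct

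Man2b1 (chr8:85083019-85083318, plus strand): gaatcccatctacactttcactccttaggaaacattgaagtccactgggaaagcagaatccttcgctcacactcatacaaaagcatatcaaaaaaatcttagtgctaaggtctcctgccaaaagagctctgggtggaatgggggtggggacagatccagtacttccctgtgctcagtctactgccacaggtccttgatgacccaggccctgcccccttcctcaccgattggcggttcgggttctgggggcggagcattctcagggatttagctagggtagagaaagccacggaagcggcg

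Of the 16 hydrolases 3 were called at week 24 and 12 had a positive log2 fold change, with a median of 0.10. The uncalled member with the smallest p was Lgmn, the asparaginyl endopeptidase that matures cathepsins. Its levels were 86.5, 95.1 and 108 CPM in NLGF libraries, against 77.0, 83.8 and 95.8 CPM in WT libraries (log2 fold change 0.18 ± 0.050, adjusted p = 0.131). Naglu, which degrades heparan sulfate, was at 0.26 ± 0.115 (adjusted p = 0.487) and Tpp1, the tripeptidyl peptidase of a Batten disease form, at 0.19 ± 0.087 (adjusted p = 0.526).

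Among the cofactors, Grn was the called one of 4. Psap averaged 1614 ± 139 CPM in the 10 NLGF and 1595 ± 126 CPM in the 10 WT libraries, a log2 fold change of 0.02 with a 95% interval of -0.097 to 0.13. The cholesterol carriers Npc2 and Npc1 were at 0.25 ± 0.130 (adjusted p = 0.586) and 0.02 ± 0.041 (adjusted p = 0.927). None of the 6 membrane proteins was called. Lamp1, the abundant coat protein of the lysosomal membrane, had 213, 234 and 253 CPM (lowest, median, highest) in NLGF libraries, against 208, 220 and 246 CPM in WT libraries. Lamp2, its relative that also serves in autophagosome fusion, had the widest interval of the group, with a log2 fold change of 0.26 ± 0.148 (adjusted p = 0.629).

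The proton pump, the TFE factors and the autophagy genes held no called member at week 24. For the 6 pump subunits every 95% interval lay between 0.904-fold and 1.11-fold. Atp6v1a, the catalytic subunit, had 523, 606 and 715 CPM (lowest, median, highest) in NLGF libraries, against 504, 615 and 678 CPM in WT libraries, so that the groups overlapped almost wholly. Tfeb and Tfe3 were at log2 fold changes of 0.07 ± 0.089 and -0.03 ± 0.046. Intervals of the 8 autophagy genes lay between 0.845-fold and 1.13-fold. Sqstm1, the cargo receptor p62, had 323, 358 and 391 CPM in NLGF libraries, against 308, 367 and 382 CPM in WT libraries. Becn1, the beclin subunit of the PI3 kinase that starts autophagosomes, was at -0.08 ± 0.036 (unadjusted p = 0.0277, adjusted p = 0.472).

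Rab7 and Rab7b encode related small GTPases of late endosomes and lysosomes. Rab7 averaged 199 ± 8.25 CPM in the 10 NLGF and 196 ± 7.25 CPM in the 10 WT libraries. Rab7b, near the bottom of the range, had 0.913, 1.32 and 1.81 CPM in NLGF libraries, against 0.853, 0.969 and 1.21 CPM in WT libraries. It was at a log2 fold change of 0.45 ± 0.133, with 7 of 10 NLGF libraries above all WT libraries, and did not pass the threshold (adjusted p = 0.182).

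**Figure D2:**
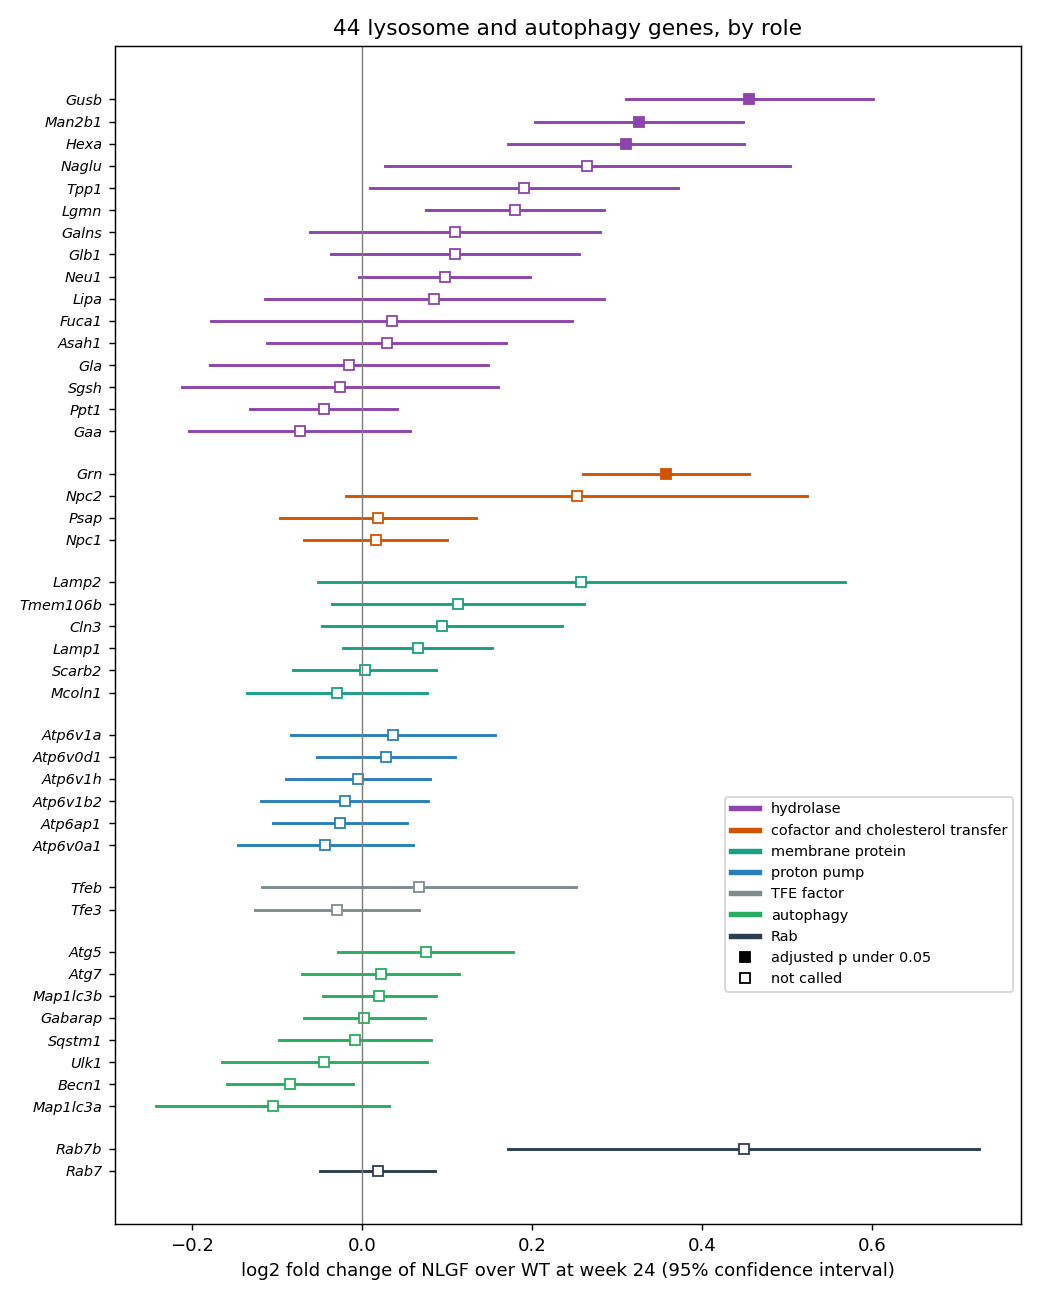
Log2 fold change of NLGF over WT at week 24 for each of the 44 genes (squares) with its 95% confidence interval (lines), grouped and coloured by role; filled squares have an adjusted p under 0.05. The 4 filled squares, between 0.31 and 0.46, belong to 3 hydrolases and Grn, and the intervals of the proton pump cluster around 0 between -0.146 and 0.156.

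Other genes of the pathway were read from lists. Of 24 other membrane and sorting genes 2 rose in NLGF at week 24: Cd68, a lysosomal glycoprotein of macrophages (log2 fold change 1.12 ± 0.083, adjusted p = 1.61e-08), and Laptm5, a lysosomal protein of the haematopoietic lineage (0.51 ± 0.063, adjusted p = 2.76e-05). Of 13 other pump subunits, 39 other autophagy genes and 21 tested genes of the TFE family and mTORC1 regulation none was called. The median log2 fold changes of these 4 lists were 0.02, -0.01, -0.04 and -0.02 in that order. The list of other lysosomal enzymes and cofactors is not reported here for week 24.

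Markers of microglia and the astrocyte marker Gfap, like the 4 genes, were higher in NLGF at week 24. Of 13 microglial markers 10 were called higher, and none of the 13 was at 0 in all libraries. Their summed level was 412 to 522 CPM in NLGF libraries, against 324 to 394 CPM in WT libraries, so the groups did not overlap, and the ratio of the means was 1.37. At week 3 that ratio was 1.06 and at week 8 it was 1.03. The 4 members rose 1.24-fold to 1.37-fold at week 24. Over the 10 NLGF libraries of week 24, Pearson r with the microglial sum was 0.06 for Grn, 0.14 for Man2b1, 0.38 for Hexa and 0.66 for Gusb. In bulk tissue more cells of a type and more RNA per cell cannot be told apart, and the part of microglia in these changes was not tested. Of 8 astrocyte markers 1 was higher in NLGF at week 24, Gfap, the intermediate filament of reactive astrocytes (log2 fold change 0.86 ± 0.110, adjusted p = 5.67e-05). The median of the 8 was -0.04, and their summed level averaged 7977 ± 593 CPM in NLGF and 7903 ± 315 CPM in WT libraries. The part of astrocytes was not tested either. Choroid plexus markers were high in some libraries, and the ratio of the mean sums, NLGF over WT at week 24, was 1.57. NLGF W24 female 3, which had the highest level of Hexa, Man2b1, Npc2 (86.8 CPM) and Lamp2 (142 CPM) among the NLGF libraries of week 24, summed to 15141 CPM of them, against a median of 1029 CPM. NLGF W24 female 1, next in this sum at 7774 CPM, had the highest Gusb of that group (18.5 CPM) and Man2b1 at 76.9 CPM. WT W24 male 4, the highest of the WT libraries in Man2b1, Npc2 (62.3 CPM) and Lamp2 (93.6 CPM), summed to 8162 CPM, against a median of 687 CPM. Its Hexa was 37.3 CPM, inside the WT range of 30.7 to 42.4 CPM. NLGF W24 male 5, lowest of its group in this sum at 182 CPM, had Hexa at 52.7 CPM, next after NLGF W24 female 3. The part of choroid plexus in these levels was not tested. Without NLGF W24 female 3 all 4 genes were still called, with Hexa at 0.28 ± 0.064 (adjusted p = 0.0439) and Man2b1 at 0.29 ± 0.052 (adjusted p = 0.00390).

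At week 8, early in adult life, no member differed between NLGF and WT, and 0 of 16494 genes were called by edgeR (1292, or 7.83%, at an unadjusted p under 0.05, 2 members among them). DESeq2 called 1 gene and no member. The smallest unadjusted p-values belonged to Sqstm1 (log2 fold change -0.16 ± 0.062, adjusted p = 0.633) and Psap (-0.13 ± 0.055, adjusted p = 0.633). Grn averaged 53.7 ± 3.67 CPM for NLGF and 54.7 ± 6.47 CPM for WT, Gusb 11.5 ± 0.915 and 11.6 ± 1.45 CPM, Hexa 37.2 ± 1.76 and 38.5 ± 2.06 CPM, and Man2b1 49.6 ± 3.04 and 51.8 ± 5.26 CPM (SD, n = 10 each), so each pair differed by less than its spread.

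At week 3, Becn1 was called lower in NLGF with all libraries (log2 fold change -0.39 ± 0.108, adjusted p = 0.0440), 1 of 44 members (0 higher, 1 lower) beside 3.78% of all genes (1.67% higher, 2.11% lower). Becn1 stood at 51.6, 56.6 and 62.6 CPM (lowest, median, highest) in the 7 deep NLGF libraries and at 76.5, 82.1 and 94.7 CPM in the 3 other NLGF libraries, against 71.8, 85.3 and 105 CPM in the 10 WT libraries. The deep libraries lay below every WT library and the 3 others among them. How many of all genes separate the deep from the WT libraries in this way was not counted. Without the deep libraries the log2 fold change was 0.01 ± 0.109 (adjusted p = 0.974), and no member and no gene was called (1965 genes, 11.4%, at an unadjusted p under 0.05). With the deep libraries as the NLGF group 7 members were called, beside 21.5% of all genes: Asah1, Lamp2, Rab7, Tmem106b and Tpp1 higher, Becn1 and Sqstm1 lower. No WT library is deep, so depth and library content cannot be told apart from genotype there. Choroid plexus markers summed to 5633 ± 6750 CPM in the 7 deep, 1073 ± 482 CPM in the 3 other NLGF and 2528 ± 1911 CPM in the WT libraries (SD). NLGF W3 female 1 and male 2, the highest of the deep ones in that sum, had Lamp2 at 116 and 115 CPM and Tpp1 at 87.9 and 84.2 CPM. Rab7 ran only from 204 to 214 CPM over the deep libraries. The part of choroid plexus in these calls was not tested. The Becn1 call was also lost without any 1 of the 7 deep libraries, or of WT W3 females 1, 2, 3 and 5 and males 2, 3 and 5, with adjusted p up to 0.0879. Exons of Becn1 share 43.9% of their length with Cntd1 on the other strand.

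Whether the genotype effect itself differs between ages was tested in 1 fit of all 60 libraries. From week 8 to week 24 the effect of NLGF over WT grew for Gusb (difference of log2 fold changes 0.49 ± 0.105, adjusted p = 0.00979), Man2b1 (0.40 ± 0.090, adjusted p = 0.0183) and Hexa (0.38 ± 0.077, adjusted p = 0.00453). Those 3 of 44 members stand beside 0.31% of all genes, all of them in this direction. Grn had a difference of 0.39 ± 0.098 that missed the threshold with all libraries (adjusted p = 0.0521) and passed it without the deep ones (0.40 ± 0.088, adjusted p = 0.0137). Between week 24 and week 3 the same 4 genes and Lgmn passed, 5 of 44 beside 1.15% of all genes (0.901% with a larger effect at week 24, 0.248% with a smaller one), with Lgmn at 0.29 ± 0.077 (adjusted p = 0.0385). Lgmn was lost when any 1 of 18 libraries was left out (adjusted p up to 0.0757): NLGF W24 females 3, 4 and 5 and males 2 and 4, WT W24 females 1, 2, 3 and 5 and males 1 and 3, NLGF W3 females 4 and 5 and males 3, 4 and 5, or WT W3 female 3 and male 2. Man2b1 was lost without NLGF W24 female 3 (0.33 ± 0.087, adjusted p = 0.0509). Without the deep libraries none of the 5 passed, with Gusb at 0.43 ± 0.135 (adjusted p = 0.276), Hexa at 0.34 ± 0.099 (adjusted p = 0.260) and Grn at 0.17 ± 0.111 (adjusted p = 0.568). Between week 8 and week 3 no member was called (0.18% of all genes; smallest member p 0.00606, Rab7, adjusted p = 0.331).

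**Figure D3:**
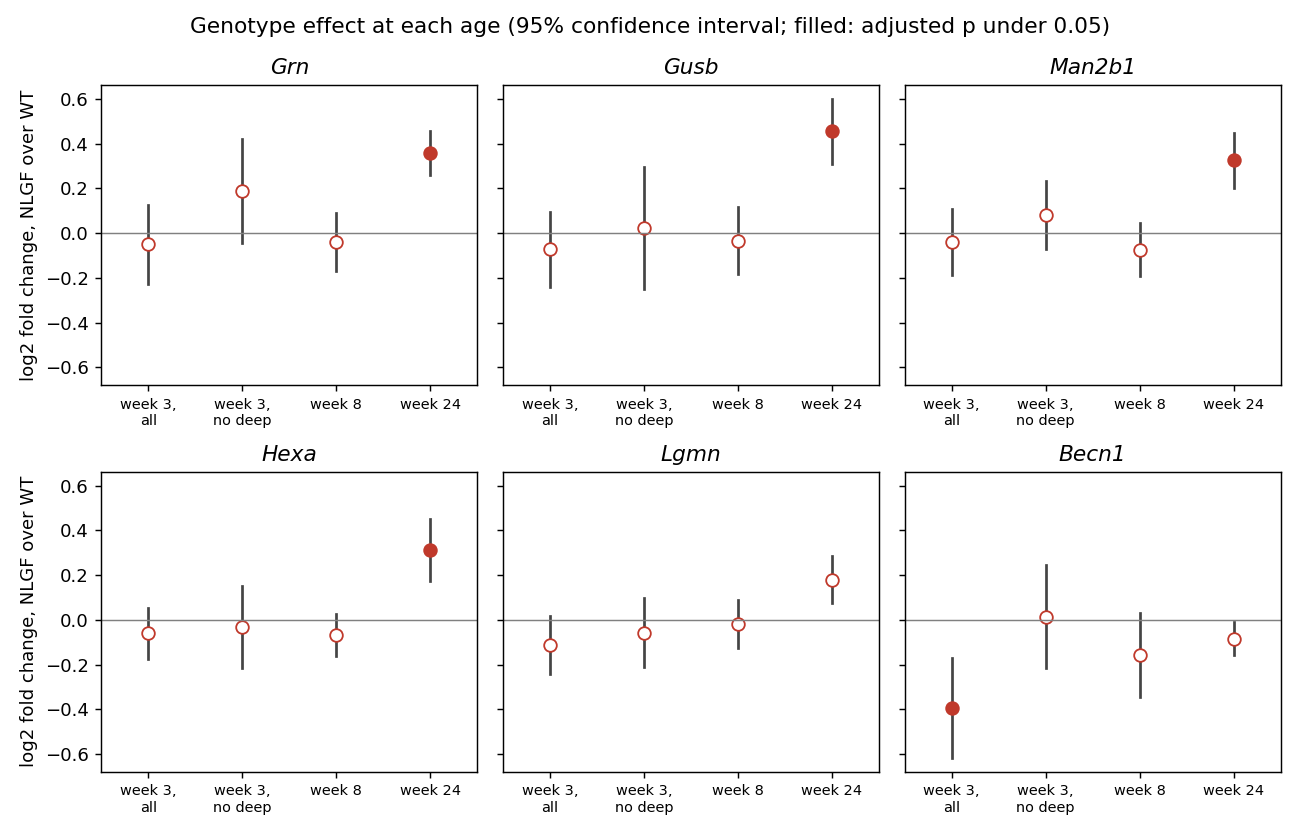
NLGF over WT as log2 fold change, with 95% confidence intervals, for the 4 genes higher at week 24, Lgmn and Becn1, at week 3 with all libraries, at week 3 without the 7 deep libraries ("no deep", 3 NLGF against 10 WT), at week 8 and at week 24; filled points have an adjusted p under 0.05. Grn, Gusb, Man2b1 and Hexa are filled at week 24 and span 0 at weeks 3 and 8, and Becn1 moves to 0.01 at week 3 once the deep libraries are left out.

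Age was compared in WT hippocampus. Rab7b, Tfeb, Lgmn and Npc2 were lower at week 8 than at week 3, 4 of 44 members and none higher, beside 7.14% of 16844 genes (2.63% higher, 4.51% lower). At week 24 against week 3 these 4 and Becn1 and Grn were lower and none higher, 6 of 44 (13.6%) beside 21.9% of all genes (10.6% higher, 11.3% lower). Of the other pathway lists, 4 of 24 enzymes and cofactors rose and 1 fell between week 3 and week 24. Ids, which degrades heparan and dermatan sulfate, was higher (log2 fold change 0.45 ± 0.104, adjusted p = 0.00207) and Aga, which cleaves glycoasparagines, lower (-0.38 ± 0.129, adjusted p = 0.0320). Membrane and sorting genes had 6 higher and 2 lower of 24, pump subunits 1 and 2 of 13, autophagy genes 6 and 2 of 39, and TFE and mTORC1 genes 3 and 4 of 21.

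Rab7b changed most. Its lowest, median and highest levels in WT were 4.13, 6.49 and 7.94 CPM at week 3, then 1.05, 1.46 and 3.23 CPM by week 8 and 0.853, 0.969 and 1.21 CPM by week 24. All 10 libraries of week 24 and all 10 of week 8 were below every library of week 3, which held for 1.94% and 0.445% of all genes. The log2 fold change was -2.62 ± 0.163 for week 24 over week 3 (adjusted p = 6.01e-13), a 0.163-fold level. Between weeks 8 and 3, as the ratio of the later to the earlier, it was -1.90 ± 0.157 (adjusted p = 1.51e-09). From week 8 to week 24 it was -0.72 ± 0.167 (adjusted p = 0.0538), beside 0.279% of genes called (0.243% lower). With RLE scaling, with DESeq2, or without any 1 of WT W3 females 3 and 5 and male 3 or WT W8 females 2 and 4 and males 1 and 3, Rab7b passed there.

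Tfeb, the master factor of the lysosomal gene set, ran from 7.76 over a median of 12.2 to 17.0 CPM at week 3, from 5.93 over 8.17 to 12.3 CPM at week 8 and from 6.09 over 7.66 to 8.51 CPM at week 24 in WT. Libraries of all 3 ages overlapped. Its log2 fold change was -0.67 ± 0.129 for week 24 over week 3 (adjusted p = 0.000296). Between weeks 8 and 3, as the ratio of the later to the earlier, it was -0.51 ± 0.129 (adjusted p = 0.0110). Tfe3 was at 0.07 for week 24 over week 3 and not called.

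Lgmn had 101, 114 and 130 CPM (lowest, median, highest) in WT libraries of week 3, 80.3, 86.9 and 93.0 CPM in those of week 8, and 77.0, 83.8 and 95.8 CPM in those of week 24, with no overlap between week 3 and the later ages. Its log2 fold change was -0.39 ± 0.049 for week 24 over week 3 (adjusted p = 4.67e-07). Npc2, the soluble cholesterol carrier of the lysosome lumen, was at -0.44 ± 0.093 (adjusted p = 0.000782), with 8 of 10 libraries of week 24 below every library of week 3. Grn was at -0.25 ± 0.076 (adjusted p = 0.0192) and Becn1 at -0.29 ± 0.089 (adjusted p = 0.0168) over the same interval. Grn averaged 67.4 ± 12.1 CPM at week 3 and 50.4 ± 3.31 CPM at week 24 in WT males. In WT females it averaged 55.3 ± 3.16 and 52.8 ± 4.96 CPM (SD, n = 5 each), and a difference of the age change between sexes was not tested. In NLGF libraries, which have the deep kind at week 3, Rab7b medians were 5.08, 1.62 and 1.32 CPM and Tfeb medians 11.3, 8.21 and 8.27 CPM at weeks 3, 8 and 24.

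**Figure D4:**
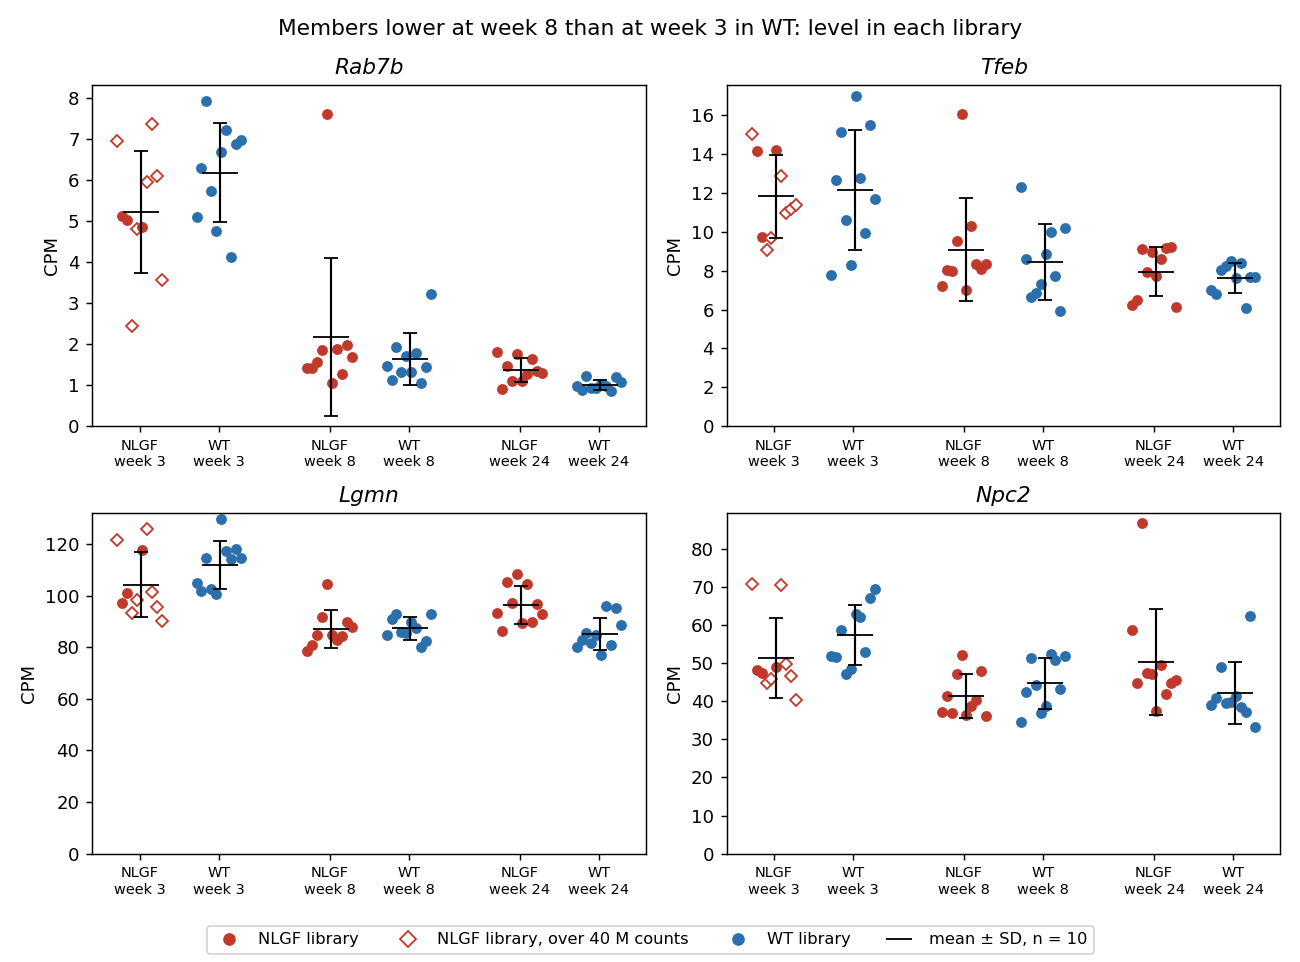
CPM of Rab7b, Tfeb, Lgmn and Npc2 in each library (points) by week and genotype, with mean and SD (n = 10 each); open diamonds are the 7 deep NLGF libraries of week 3. Rab7b in WT lies at 4.13 to 7.94 CPM at week 3 and at 0.853 to 1.21 CPM at week 24, and 1 NLGF library of week 8 (female 5) stands apart at 7.62 CPM.

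Oligodendrocyte markers, like Rab7b and Tfeb, were lower at the later ages in WT. The 8 myelin markers, none at 0 in all libraries, summed to a mean of 10627 CPM at week 3, 4738 CPM at week 8 and 4085 CPM at week 24 in WT, and the ratio of week 24 over week 3 was 0.384. Of these markers 7 of 8 were lower at week 24 than at week 3, as were 4 of 4 blood and 3 of 6 endothelial markers. NLGF W8 female 5 had 7.62 CPM of Rab7b, against at most 1.98 CPM in the 9 other NLGF libraries of week 8, and 16.1 CPM of Tfeb, against at most 10.3 CPM. Its myelin markers summed to 14779 CPM, against a median of 4400 CPM over its group, and were the highest of the 10. In WT W8 male 5, which had the highest Rab7b of its group (3.23 CPM), they summed to 7710 CPM, also the highest. Pearson r of Rab7b with this sum was 0.99 in NLGF at week 8 and 0.06 at week 24. In WT r was 0.78 at week 3, 0.83 at week 8 (0.31 without the 2 farthest libraries) and 0.41 at week 24. The part of oligodendrocytes in the age change of these genes was not tested.

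**Figure D5:**
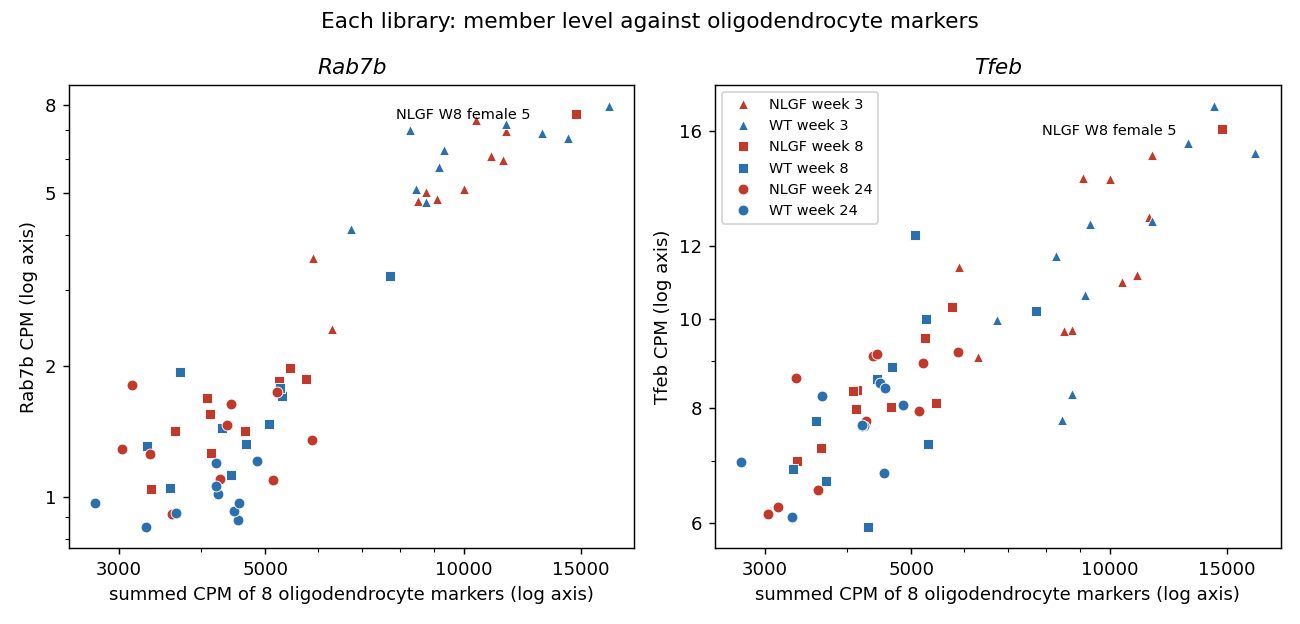
Rab7b (left) and Tfeb (right) in CPM against the summed CPM of 8 oligodendrocyte markers, 1 point per library on log axes, with symbols for week and colours for genotype. Most libraries of week 3 lie at the upper right and most of weeks 8 and 24 at the lower left, and NLGF W8 female 5 (marker sum 14779 CPM) lies among those of week 3.

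Sex made no member pass the threshold in WT (0 of 44, beside 9 of 16844 genes, 0.0534%, by edgeR). At an unadjusted p under 0.05 there were 2 members (5.2% of all genes), Psap (male over female log2 fold change 0.12 ± 0.050, adjusted p = 0.853) and Npc2 (0.16 ± 0.076, adjusted p = 0.853), and DESeq2 called none. A sex difference that turns around with age can cancel in such a fit, and single ages were not tested. Mean Hexa of WT males was 42.2 ± 2.28, 38.7 ± 2.34 and 33.1 ± 2.56 CPM at weeks 3, 8 and 24. In WT females it was 36.8 ± 3.28, 38.4 ± 2.01 and 38.5 ± 3.33 CPM (± SD of 5 libraries). For Man2b1 the males had 61.4 ± 2.05, 49.0 ± 3.19 and 55.5 ± 6.76 CPM, the females 51.4 ± 2.81, 54.6 ± 5.73 and 53.4 ± 2.25 CPM.

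The authors' deposited table of genes called between genotypes lists 4 of the 44 genes at week 24, among 156 rows: Gusb (log2 fold change 0.44), Grn (0.35), Man2b1 (0.32) and Hexa (0.30). At week 3 the authors' deposited table lists Rab7, Becn1, Atp6v0d1, Tpp1 and Ulk1 among 2628 rows, and at week 8 no member among 4 rows. Of these 5 genes the edgeR fit of all week 3 libraries called Becn1 alone. Without the 7 deep NLGF libraries it called no gene.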

How the data were processed

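Hippocampal total RNA was sequenced in 60 samples. The authors deposited raw gene counts per sample, and per the submitters' processing notes the tools were FastQC, STAR, DESeq2 and edgeR with the mm10 genome. The sources used here do not give their versions, how reads were assigned to genes, or whether strand was used. Per the file headers the deposited table of called genes holds baseMean scores, log2 fold changes and p-values, which are used as given and named where printed. The 44 members and all lists were chosen with earlier results of these data known.

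From the counts, edgeR 4.0.16 in R 4.3.3 (limma 3.58.1) filtered genes (filterByExpr, minimum count 10), scaled by TMM and tested by robust quasi-likelihood, with sex as covariate, adjusted by Benjamini-Hochberg over all genes at a threshold of 0.05. The standard error (SE) is the log2 fold change over the root of its F statistic. Genotypes were fitted within each week (20 samples), WT ages over 30 WT samples, and differences of effects over all 60. The procedure was tested on simulated data. Alternatives were RLE scaling, DESeq2 1.42.0, other filters, no sex term, a replicate block, leaving out each library, and leaving out the deep libraries. Replicate numbers were not taken to pair samples. Named genes are all called members up to 12 per direction, the next 3 by p, and up to 3 called genes per pathway list and direction; other genes named were chosen after their values were seen, and some genes that the rule names are not reported here. Gene lengths are unions of exons in GENCODE vM21. Figures used matplotlib 3.10.9.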

Additional observations from a re-analysis of the deposited data

Results flagged for a closer look

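Among 54 sets of 10 libraries (9 genes in 6 groups) 8 had a library that stood apart by Dixon's test, which chance gives in about 1 of 20 sets. Rab7b was at 7.62 CPM, Tfeb at 16.1 CPM and Lgmn at 105 CPM in NLGF W8 female 5, with the next libraries at 1.98, 10.3 and 91.8 CPM. Its oligodendrocyte markers summed to 14779 CPM, the highest of its 10. Rab7b was at 3.23 CPM in WT W8 male 5 (next 1.94 CPM), where that sum was 7710 CPM, also the highest of 10. Npc2 was at 86.8 CPM in NLGF W24 female 3 (next 58.8 CPM), and Man2b1 at 67.0 CPM in WT W24 male 4 (next 56.3 CPM). These libraries had the highest choroid plexus sums of their groups, 15141 and 8162 CPM. Man2b1 was at 64.4 CPM in WT W8 female 1 (next 54.4 CPM), and Gusb at 8.40 CPM in WT W3 female 1 (next 11.1 CPM). The part of these cell types in the values was not tested.

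The effect of NLGF over WT differed between ages by a test of the difference itself. Week 24 minus week 8 gave 0.49 for Gusb, 0.38 for Hexa and 0.40 for Man2b1 on the log2 scale. Week 24 minus week 3 gave 0.41 for Grn, 0.53 for Gusb, 0.37 for Hexa, 0.29 for Lgmn and 0.37 for Man2b1, and none of these 5 passed without the deep libraries of week 3.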

How the results depend on the processing

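Member counts at week 24, week 8, between week 8 and week 3, in WT at week 8 or week 24 over week 3, and between sexes stayed within 1.5 times under all settings run. At week 3 the count of 1 became 3 with DESeq2, 0 without a filter, 2 with at least 1 CPM in 10 samples, 0 with the replicate block, 0 without the deep libraries, 7 with deep libraries alone, 4 in the fit of all 60 and 0 without NLGF W3 male 2 (a setting added after seeing the data), and the Becn1 log2 fold change turned to 0.013 without the deep libraries. For week 24 minus week 8 the count of 3 became 1 with the replicate block, where Gusb (adjusted p = 0.0549) and Man2b1 (adjusted p = 0.0540) were no longer called and Hexa was (adjusted p = 0.0142). For week 24 minus week 3 the count of 5 became 3 without a filter and 0 without the deep libraries. For WT week 24 over week 8 the count of 0 became 1 with RLE scaling, DESeq2 or the replicate block. Leaving out 1 library gave 0 to 3 members at week 3, 3 to 6 for week 24 minus week 3 and 0 to 1 for WT week 24 over week 8. Over all genes, DESeq2 called 224 at week 24, against 145 in edgeR. Replicate numbers were not taken as pairs, since not every same-numbered pair correlated above 0.1: 13 of 30 did (-0.165 to 0.424), and 11 of 30 matched best with their own number. At week 24 these were 7 of 10 and 7 of 10, a hint of pairing from the data and not from the design, against 6 of 20 and 4 of 20 at weeks 3 and 8. The block left all 4 calls of week 24 in place. The cause of these shifts was not tested. Rab7b, at a mean count of 27.1 in WT at week 24, is the member most limited by depth.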

Other observations

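Within groups of 10 libraries, 18 relations between a gene and a marker sum were computed, all chosen after the data were seen, with 100000 permutations each and Benjamini-Hochberg adjustment. Each sex has 5 libraries, too few for values within sex. Rab7b followed the oligodendrocyte sum in NLGF at week 8 (Pearson r 0.99, permutation p = 0.000230, adjusted 0.00261; Spearman rho 0.84, adjusted 0.0212), and r was 0.84 without the 2 farthest libraries. Tfeb did so there too (r 0.97, permutation p = 0.000290, adjusted 0.00261; rho 0.83, adjusted 0.0212; r 0.72 without the 2) and in WT at week 3 (r 0.83, permutation p = 0.00288, adjusted 0.0173; rho 0.83, adjusted 0.0212; r 0.76 without the 2). For Rab7b in WT at week 8 r was 0.83 (adjusted permutation p = 0.0595) and 0.31 without the 2 farthest, so that the relation rests on those. Not all relations were of this size. Rab7b in WT at week 3 had r 0.78 (adjusted permutation p = 0.0371) but rho 0.66 (adjusted permutation p = 0.124), and Tfeb in WT at week 8 r 0.57 (adjusted permutation p = 0.158). At week 24 Rab7b had r 0.06 in NLGF (adjusted permutation p = 0.923) and 0.41 in WT (adjusted permutation p = 0.358). Tfeb at week 24 had r 0.71 in NLGF (adjusted permutation p = 0.0625; rho 0.81, adjusted 0.0251) and 0.54 in WT (adjusted permutation p = 0.166), which was -0.07 without the 2 farthest libraries.

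Against the microglial sum in NLGF at week 24, Gusb had r 0.66 (permutation p = 0.0343, adjusted 0.0772), which was 0.35 without the 2 farthest libraries, and Grn r 0.06 (adjusted permutation p = 0.923). Hexa had r 0.38 there (adjusted permutation p = 0.377), which was 0.08 without the 2, and rho 0.45 (adjusted permutation p = 0.306), and Man2b1 r 0.14 (adjusted permutation p = 0.871). In WT at week 24 Hexa had r 0.70 (adjusted permutation p = 0.0625) and rho 0.94 (adjusted permutation p = 0.00378), while Grn had r 0.62 (adjusted permutation p = 0.106), Gusb r -0.25 (adjusted permutation p = 0.624) and Man2b1 r 0.01 (adjusted permutation p = 0.986). Permutations did not keep the sexes apart. In that WT group the microglial sum was 337 to 394 CPM in females and 324 to 342 CPM in males. Hexa averaged 38.5 ± 3.33 CPM in the females and 33.1 ± 2.56 CPM in the males (SD). The part of sex in the Hexa relation was not tested.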
